A study of Saccharomyces cerevisiae with 16 samples.

Results

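The 5′ portion of the yeast 25S rRNA, from its first nucleotide to nucleotide 1450, was examined in pre-rRNA probed with dimethyl sulfate (DMS) after purification of small subunit processomes. These nucleotides are rows 3252 to 4701 of the deposited 35S profiles, which ran for 6647 nt. Members were the A and C of the stretch with an effective depth, the number of usable reads over a nucleotide, of 50 or more in each of the 16 libraries. This left 626 of its 669 A and C (373 of 398 A and 253 of 271 C), out of 2756 such sites in the whole profile. The 43 sites left out had depths down to 34 in their shallowest library and lay in nucleotides 401 to 500, 801 to 900 and 1001 to 1100. At the depth limit, 20 sites were kept with lowest depths of 50 to 54 and 18 were left out with 45 to 49.

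The particles were isolated from Saccharomyces cerevisiae by way of TAP-tagged Utp10, which is one of their proteins. All 4 groups came from cells grown in YPD to mid-log phase, and they differed in Has1 (Has1-WT, called WT below, or Has1-H375A, called H375A) and in treatment (1% DMS at 30 °C for 5 min, or untreated). Each group had 4 libraries, described as biological replicates, and each DMS library had its own untreated control; the labels say no more of the strains, of how Has1-H375A was expressed or of any other tag or allele. The question named in the series title is how the rRNA fold differs between processome intermediates.

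Has1 is a DEAD-box RNA helicase that yeast needs to make both ribosomal subunits. The processome forms on the 5′ side of the 35S transcript, around the future 18S, while 25S lies downstream in the same transcript and belongs to the large subunit. The 5′ portion of 25S holds the first domains of the large subunit rRNA, which pair in part with 5.8S, and the GTPase-associated centre, a small fold that in the ribosome binds protein uL11 and the stalk that recruits translation factors. DMS methylates the pairing face of A and C when it is free, and in DMS-MaPseq the reverse transcriptase leaves a mutation in the cDNA at such a base. The mutation rate, mutated reads over effective depth in percent, is therefore read at A and C as a measure of accessibility. The purified RNA can hold 25S sequence as part of 35S, as pre-60S rRNA and as mature rRNA, and the reads of these forms cannot be told apart.

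The sequences below carry the sites with the largest signal. Capitals mark A and C whose mutation rate rose with DMS in both genotypes (edgeR, adjusted p under 0.05, see the counts further on), and positions are 25S nucleotides read 5′ to 3′ from the deposited profile. The first holds the methylated adenosine A645 as its base 6 and the strongest DMS site, A692. The second holds A1225 and the GTPase-associated centre, which starts at nucleotide 1226 and ends at 1283. Next come the surroundings of the other 3 of the 5 strongest sites in WT, and last the longest run of members without a call in either genotype. Lower case also covers A and C that were not tested. In the last run, 14 of its 26 A and C were members.
25S 640 to 707: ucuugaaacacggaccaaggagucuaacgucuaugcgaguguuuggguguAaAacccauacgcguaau
25S 1214 to 1288: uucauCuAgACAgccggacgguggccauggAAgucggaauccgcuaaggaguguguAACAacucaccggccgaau
25S 746 to 776, around A761: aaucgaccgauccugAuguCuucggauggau
25S 198 to 228, around A213: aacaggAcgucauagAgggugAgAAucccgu
25S 351 to 381, around A366: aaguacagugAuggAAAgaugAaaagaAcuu
25S 454 to 519, no call: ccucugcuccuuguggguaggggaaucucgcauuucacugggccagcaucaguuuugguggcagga

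Depth differed widely between libraries. The median effective depth of the stretch was 152, 932.5, 673 and 195.5 reads in the WT DMS libraries 1 to 4 and 113, 337, 1586.5 and 122 in those of H375A. The untreated libraries had 135, 777.5, 747 and 187 reads in WT and 196, 408, 1669 and 102 in H375A. Replicate 3 therefore supplied most of the reads summed over the H375A libraries. Counting error alone gave 95% Wilson limits of 0.177% and 5.45% around a rate of 1% at 100 reads, and of 0.622% and 1.63% at 1586 reads. Replicate 1 of each genotype was the least reactive across the profile, with scaling factors of 0.855 (WT) and 0.877 (H375A), while the other DMS libraries had 0.994 to 1.09.

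In the stretch as a whole, DMS raised the rate at A and C. At A the mean rate over sites was 0.937, 1.20, 1.18 and 1.20% in the WT DMS libraries and 0.405, 0.401, 0.418 and 0.371% in the untreated ones, and in H375A it was 0.929, 1.17, 1.22 and 1.16% against 0.442, 0.426, 0.381 and 0.400%. No DMS library overlapped an untreated one, and the ratio of the means was 2.83 in WT and 2.72 in H375A. At C the means were 0.626% ± 0.020 (SD, n = 4) and 0.399% ± 0.053 in WT and 0.612% ± 0.038 and 0.372% ± 0.042 in H375A, ratios of 1.57 and 1.65, again without overlap. G and U, which DMS does not mark on the pairing face in this way, had ratios between 1.03 and 1.18, and there the DMS and untreated libraries overlapped. Between genotypes the DMS means overlapped at A, C and U. At G the DMS mean was 0.517% ± 0.039 in WT and 0.463% ± 0.022 in H375A, and these libraries did not overlap.

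Site by site, mutated reads of DMS and untreated libraries were compared with edgeR's quasi-likelihood test over the whole profile. In WT, 143 of 519 tested members were called higher with DMS and 0 lower (adjusted p under 0.05). The share called over the profile was 37.0% higher and 0.0416% lower, so the stretch lay below the profile. Calls depend on depth, and the stretch had less depth than 18S, so the share is not a measure of reactivity alone. The median log2 change of tested sites was 0.88 in the stretch and 1.04 over the profile in WT, and 0.98 and 1.02 in H375A. In H375A, 197 of 575 tested members were called higher and 2 lower, against 40.4% and 0.0773% over the profile. The 2 lower ones, C82 and C1239, rested on 2 mutated reads each with DMS. In the fit with DMS and untreated libraries paired by replicate number, 144 members were called higher in H375A and 0 lower, so both lower calls were lost. Of the members, 119 were called higher in both genotypes, which is 83.2% of the WT calls and 60.4% of the H375A calls. Among the 78 members called in H375A alone, 64 had a higher mean rate with DMS in WT too, and so did 19 of the 24 called in WT alone in H375A. Without replicate 3 of the H375A DMS libraries, the H375A calls in either direction fell from 199 to 88, and without replicate 3 of its untreated libraries to 113.

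**Figure D1:**
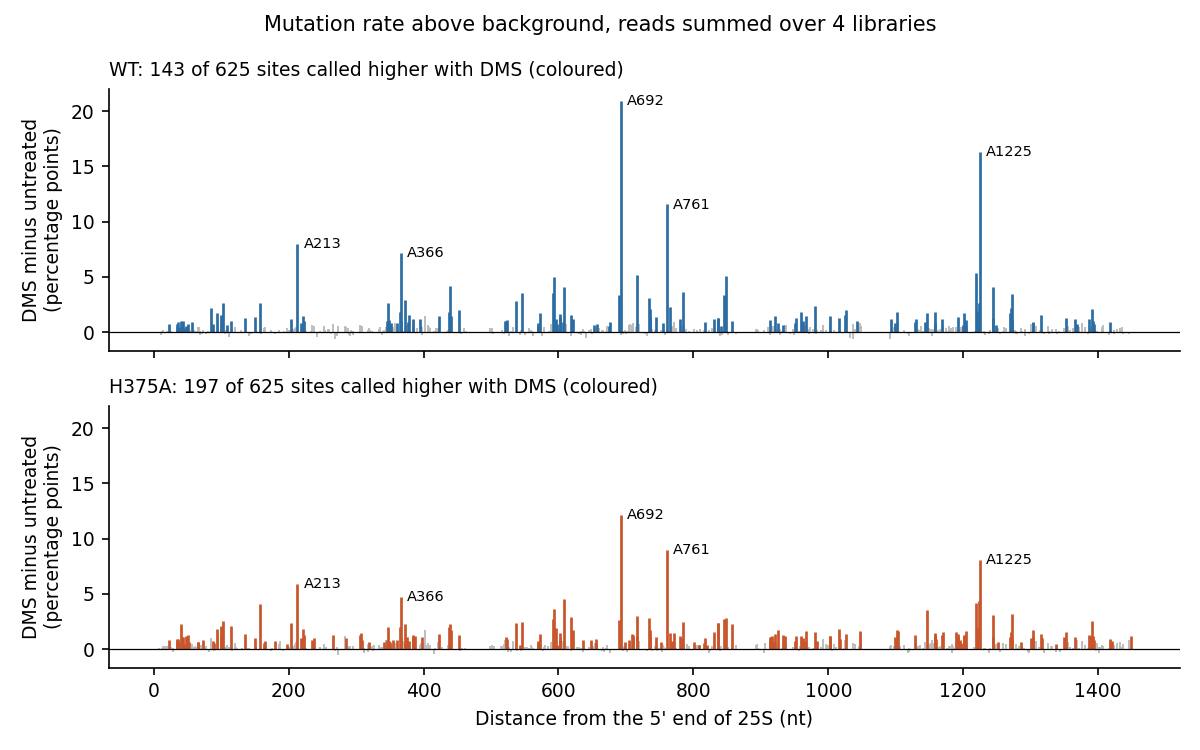
Pooled mutation rate with DMS minus that without, in percentage points, at 625 A and C with an untreated rate under 5%, against the distance from the 5′ end of 25S. Coloured lines are sites called higher with DMS (143 in WT, 197 in H375A), grey lines the others; A692, A761, A1225, A213 and A366 are the 5 tallest in both genotypes.

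The 119 sites called in both genotypes comprised 95 A, 25.5% of the A members, and 24 C, 9.49% of the C members. Of them, 52 had a called neighbour, and there were 8 runs of at least 3 adjacent called nucleotides. The longest were nucleotides 1201 to 1204 and 1270 to 1273, the latter inside the GTPase-associated centre. These counts were not made for the rest of the profile, so they cannot show whether the grouping is particular to the stretch. Sites followed by A were called in both genotypes most often, 47 of 179, then those followed by G (36 of 180), U (21 of 146) and C (15 of 120). A local fold of the naked 25S sequence was predicted with RNAplfold, which gives each base a probability of being unpaired. Of 306 members with a probability of 0.5 or more, 89 were called in both genotypes, against 30 of 319 with a lower one. The median signal above background was 0.513 and 0.0732 percentage points for these classes in WT, and 0.637 and 0.125 in H375A. Across 625 members the rank correlation (Spearman) of the signal with that probability was 0.46 in WT and 0.49 in H375A, given as a description since neighbouring sites share reads. Among the 12 strongest sites in WT, 7 had a predicted probability of 0.5 or more, such as A692 (0.994) and A1225 (0.815), and 5 a lower one: A761 (0.325), C1219 (0.456), C717 (0.370), C593 (0.185) and A608 (0.362).

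Across the same 625 members the pooled signal above background of the genotypes had a rank correlation of 0.71, also a description over sites. The ranking at the top was shared in part. The 12 strongest sites in WT were A692, A1225, A761, A213, A366, C1219, C717, A848, C593, C439, A608 and A1245, from 20.9 percentage points above background at A692 to 4.05 at A1245, with A784 next at 3.64. Of the 12 strongest in H375A, 8 were among them, and the other 4 were C1224, A157, C1146 and A1273. All of the 12 were called higher with DMS in both genotypes, and they were chosen for their DMS signal.

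Between genotypes, the rate with DMS was tested at 320 members whose DMS rate exceeded the untreated one by at least 0.2 percentage points, with each library scaled by its median site. Of these, 2 were called lower in H375A, A1225 and A692, the most reactive nucleotides of the stretch in WT, and 0 were called higher. Over the profile, 1.69% of 1602 tested sites were called lower and 0.624% higher. The stretch, with 2 and 0 of 320, thus held a smaller share than the profile in each direction, a share on which depth also bears. At an unadjusted p under 0.05, 22 members were higher and 8 lower. The profile was not counted at this threshold, so these counts have no share to be set beside. Counted without a model, the 4 libraries of H375A lay wholly above those of WT at 11 of the 320 members and wholly below at 5, where the profile had 2.62% and 2.37%.

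A1225 is the nucleotide just before the GTPase-associated centre. With DMS its rate was 9.71, 15.4, 20.8 and 16.5% in the WT libraries and 7.25, 9.38, 8.37 and 7.36% in those of H375A. Every H375A library lay below every WT library, the nearest being WT replicate 1. Without DMS it was 0.491% ± 0.309 in WT and 0.599% ± 0.446 in H375A (SD, n = 4), at depths of 138 to 2329 reads. The mean DMS rate was 1.93 times higher in WT, with a fitted log2 change of -0.97 (SE 0.17, edgeR adjusted p = 2.55e-06). The call held when any single library was left out, with adjusted p up to 0.0100 (edgeR). It was lost without both libraries of replicate 3, where the log2 change was -0.72 (edgeR adjusted p = 0.210).

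A692 had the highest rate with DMS among the members with an untreated rate under 5%. It was 6.86, 22.1, 24.0 and 15.9% in WT and 10, 13.4, 12.5 and 12.3% in H375A. WT replicate 1 lay below all H375A libraries, while the other 3 WT libraries lay above them. The untreated rate was 0.221% ± 0.255 in WT and 0.383% ± 0.617 in H375A (SD, n = 4), at depths of 80 to 1682 reads. The fitted log2 change was -0.69 (SE 0.17, edgeR adjusted p = 0.00562). Leaving out WT replicate 1 gave -0.79 (edgeR adjusted p = 0.000303). The call was lost when WT replicate 2 was left out (edgeR adjusted p = 0.177), likewise for replicate 3 of WT (0.431) and of H375A (0.179), with no scaling (0.0529) and with DESeq2 (DESeq2 adjusted p = 0.241). It was also lost without both libraries of replicate 2 (edgeR adjusted p = 0.508) or of replicate 3 (0.997).

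For both sites the difference that DMS made was also compared between genotypes in a fit over the 16 libraries. The interaction was -0.63 at A1225 and -0.78 at A692 on the log2 scale, and neither was called (edgeR adjusted p = 0.999 for each, unadjusted 0.343 and 0.357). This fit called 0 of 1602 sites over the profile. Few mutated reads without DMS lay behind it: 14 in each genotype at A1225, and 6 (WT) and 9 (H375A) at A692. With so few, the fit cannot decide whether the effect of DMS differed at these sites. With the untreated libraries alone, edgeR called 0 of 475 tested members between genotypes in either direction. Over the profile it called 0% of 2313 as higher and as lower, and DESeq2 also called 0. At an unadjusted p under 0.05, 7 members were higher and 6 lower, a threshold at which the profile was not counted.

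**Figure D2:**
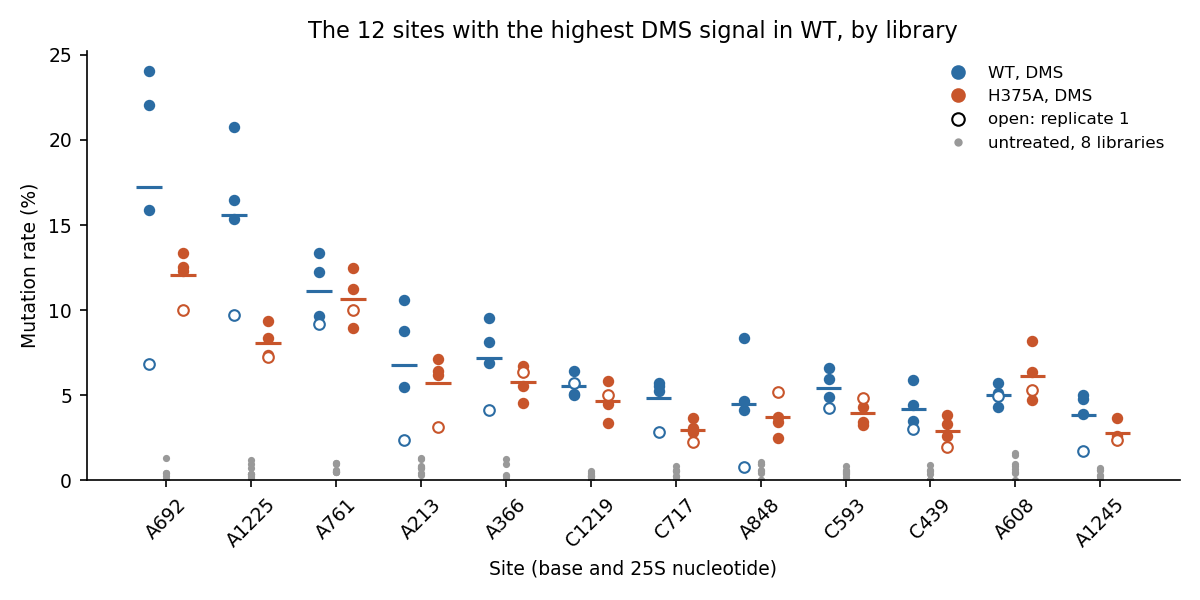
Mutation rate in percent, by library, at the 12 sites with the highest DMS signal in WT (x axis, base and 25S nucleotide). Blue points are WT and orange points H375A DMS libraries, bars their means, open points replicate 1, and grey points the 8 untreated libraries; at A1225 the genotypes do not overlap, and at A692 WT replicate 1 is the lowest of all.

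The other strong sites did not pass the test between genotypes, and most of their values were lower in H375A. They were chosen for a high signal in WT, which favours lower values in H375A, so their direction is a description. A761 had 9.19, 13.4, 12.2 and 9.66% in WT and 10, 11.2, 8.93 and 12.5% in H375A with DMS, which overlap (log2 change -0.26, SE 0.18, edgeR adjusted p = 0.669). A213 had 2.37, 10.6, 8.76 and 5.50% against 3.11, 6.21, 7.11 and 6.41%, with replicate 1 the lowest in each genotype (log2 change -0.34, edgeR adjusted p = 0.574). A366 had 4.14, 6.92, 9.52 and 8.13% against 6.38, 5.56, 4.57 and 6.72%, again with overlap through WT replicate 1 (log2 change -0.53, edgeR adjusted p = 0.468). C717 had 2.86, 5.70, 5.53 and 5.24% against 2.26, 3.06, 3.65 and 2.84% and a log2 change of -0.65 (edgeR adjusted p = 0.274). At A848 the WT libraries themselves ran from 0.806% to 8.39%, and those of H375A from 2.49% to 5.21%. A608 was the exception among the 12, with a log2 change of 0.19.

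The 4 sites among the 12 strongest in H375A but not in WT were C1224, A157, C1146 and A1273, and that choice favours higher values in H375A, so their direction is a description. C1224, the 5′ neighbour of A1225, had 1.92, 4.00, 2.25 and 3.13% in WT and 3.76, 3.96, 5.21 and 3.82% in H375A (log2 change 0.59, edgeR adjusted p = 0.446). At A157 all H375A libraries (5.04, 5.00, 4.35 and 5.23%) exceeded all WT libraries (2.52, 4.05, 2.36 and 2.62%), with a log2 change of 0.57 that was not called (edgeR adjusted p = 0.468). C1146 had 4.11, 2.41, 1.89 and 2.48% in WT and 6.25, 5.41, 4.01 and 2.56% in H375A, which overlap (log2 change 0.86, edgeR adjusted p = 0.228). A1273 had a log2 change of -0.03. The lowest p among members that were not called was at A1193, whose rate was 0.484% ± 0.330 (SD, n = 4) for WT and 1.44% ± 0.70 for H375A, a log2 change of 1.55 (edgeR adjusted p = 0.103). It was named after its value was seen.

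The change between genotypes was then set against the level of reactivity. Members were ranked by the mean DMS signal of both genotypes, so that neither genotype set the ranking alone. Still, the 12 highest were those of WT with A157 in place of A1245. The ranking also used the same DMS rates as the change, so the direction at the top is a description. Of the 12 highest, 10 had a log2 change below 0, with a median of -0.49. The next 50 had a median of -0.09, and the other 258 tested members one of 0.18. Over all 320 tested members the median was 0.12, with 136 below 0, where the profile had 0.035 and 18S 0.041. The mean rate over the 12 highest was 4.70, 8.52, 9.52 and 7.36% in the WT DMS libraries and 5.53, 6.09, 5.76 and 6.49% in those of H375A. Before scaling, WT replicate 1 lay below all H375A libraries and the other 3 WT libraries above them. Unlike the log2 changes, these means were not scaled by library, and WT replicate 1 had the lowest scaling factor, 0.855. Without WT replicate 1 the means were 8.47% ± 1.08 (SD, n = 3) and 5.97% ± 0.42 (SD, n = 4), without overlap. Without replicate 1 of both genotypes they were 8.47% ± 1.08 and 6.11% ± 0.37 (SD, n = 3 each), also without overlap. Without H375A replicate 3 they were 7.52% ± 2.08 (SD, n = 4) and 6.04% ± 0.48 (SD, n = 3), with overlap. These means were not computed with other libraries left out. The part of the least reactive libraries in this pattern was not tested. For the next 50 sites the DMS means were 2.43% ± 0.27 and 2.45% ± 0.18, and for the remaining 563 members 0.650% ± 0.036 and 0.671% ± 0.087 (SD, n = 4), with overlap in both classes. Under every setting tried, between 6 of 8 and 11 of 12 of the highest sites had a change below 0. The medians were less stable: that of the 12 highest was -0.32 without WT replicate 3, and that of the next 50 was 0.085 without H375A replicate 3, 0.12 without both libraries of replicate 3 and 0.044 in the interaction. The median over all tested members was 0.059 with scaling on 25S sites alone and 0.15 with the replicate block.

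**Figure D3:**
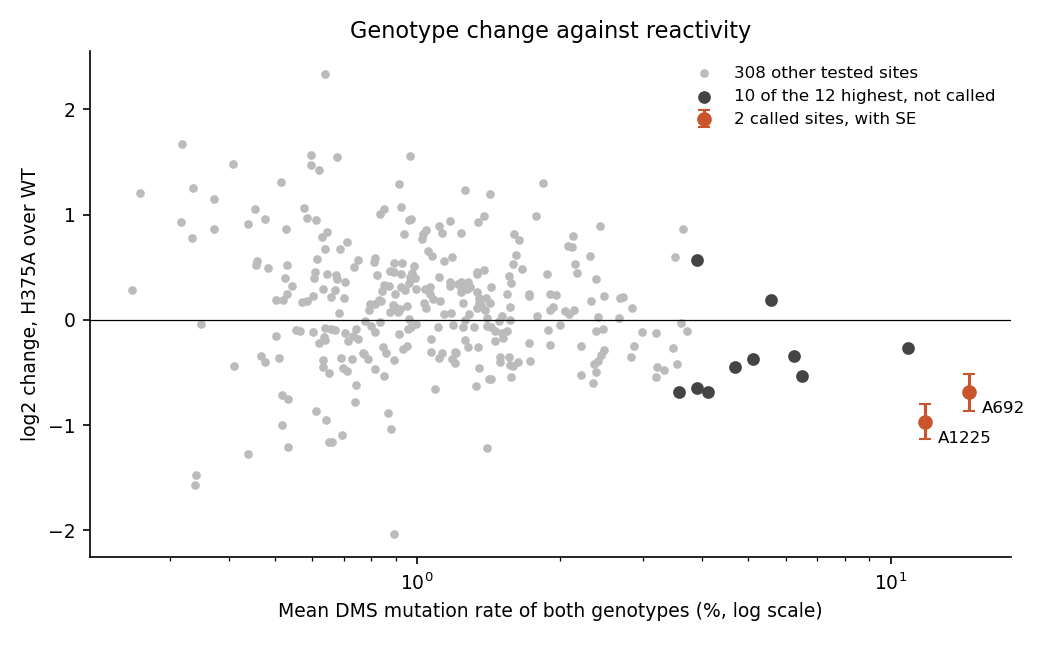
Fitted log2 change of the DMS rate, H375A over WT, at the 320 tested members against the mean DMS rate of both genotypes in percent (log axis). Orange points with SE bars are the 2 called sites, dark points the rest of the 12 highest, grey points the other members; 10 of the 12 highest lie below 0.

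The GTPase-associated centre held 29 A and C, all with the depth, and 0 of its 12 tested members were called between genotypes. The median log2 change of these 12 was -0.06, against 0.12 over all tested members. With 1 library left out, the median of the centre ranged from -0.0098 (without WT replicate 2) to -0.14 (without H375A replicate 3). It was -0.31 without both libraries of replicate 3, 0.014 with the replicate block and -0.46 in the interaction. With DMS, 7 of 28 tested members of the centre were called higher in WT and 7 of 29 in H375A, beside 27.6% and 34.3% of all tested members of the stretch and 37.0% and 40.4% of the profile. Its most reactive nucleotide in WT was A1245, with 1.74, 4.78, 5.02 and 3.91% in WT and 2.38, 2.39, 3.66 and 2.62% in H375A, which overlap (log2 change -0.48, edgeR adjusted p = 0.482). A1273 had nearly the same rate in both genotypes, 3.72% ± 0.28 and 3.49% ± 0.61 (SD, n = 4; log2 change -0.03, SE 0.26).

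Across the stretch, reactivity was averaged in windows of 100 nt. Taking pooled rates above background, the highest windows in WT were nucleotides 701 to 800 (0.976 percentage points, 0.854 in H375A), 1201 to 1300 (0.924 and 0.755) and 601 to 700 (0.883 and 0.721). A single strong site weighs on such a mean. The window 601 to 700 holds A692, at 20.9 percentage points in WT, and only 6 of its 49 members were called in both genotypes. The lowest were 1401 to 1450 (0.148 and 0.368), 101 to 200 (0.280 and 0.435) and 1 to 100 (0.346 and 0.493). The window of A1225, 1201 to 1300, also held the most sites called in both genotypes, 15 of 52 members, where 1401 to 1450 had 1 of 20. With limma on scaled means, 0 of the 15 windows differed between genotypes (0% of 66 windows over the profile). The lowest p was at 1201 to 1300, where the scaled mean was 2.30% ± 0.12 (SD, n = 4) for WT and 2.01% ± 0.09 for H375A, a log2 change of -0.19 with an SE of 0.07 (limma adjusted p = 0.325). In nucleotides 454 to 519, the longest run of members with no call, the median pooled rate of the 14 members was 0.347% with DMS and 0.326% without in WT, and 0.381% and 0.235% in H375A. The run holds 26 A and C. Of its 14 members, 6 in WT and 7 in H375A had enough mutated reads to be tested.

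**Figure D4:**
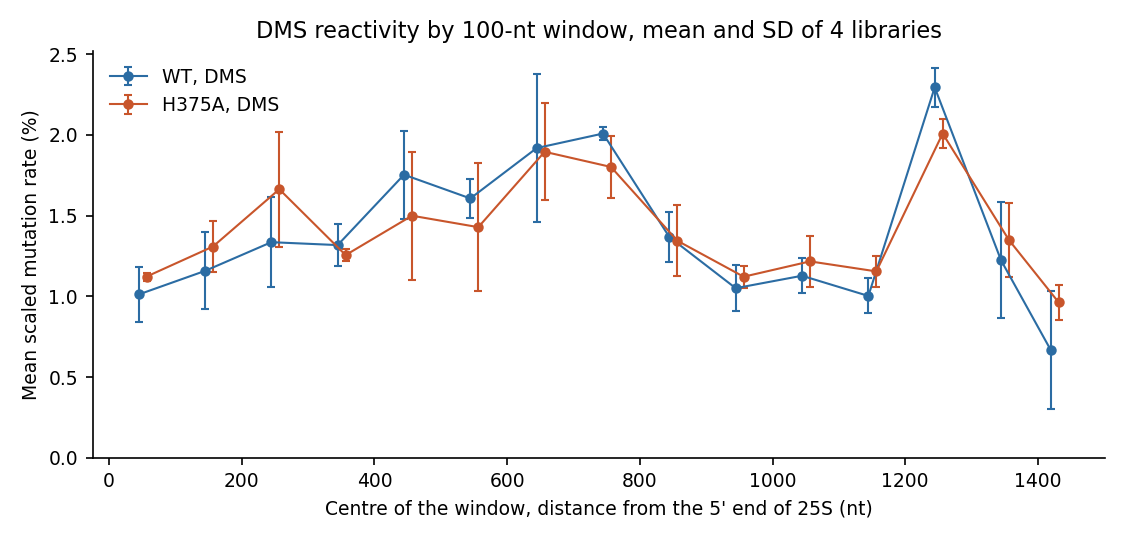
Mean scaled DMS mutation rate in percent by 100-nt window, with the SD of 4 libraries as bars, against the distance of the window's centre from the 5′ end of 25S. WT (blue) and H375A (orange) follow the same course, with the highest mean in nucleotides 1201 to 1300 and 0 of 15 windows called different.

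A645 was the only member with a rate of 5% or more without DMS. It is the N1-methyladenosine that the methyltransferase Rrp8 places in yeast 25S, and this methyl group sits on the pairing face, where it makes the reverse transcriptase misread. The untreated rate was 79.8, 75.2, 73.3 and 69.6% in WT and 77.0, 76.0, 75.5 and 76.4% in H375A, at depths of 55 to 1466 reads. The groups overlapped, with means of 74.5% ± 4.2 and 76.2% ± 0.6 (SD, n = 4; exact two-sided permutation p = 0.486). Without WT replicate 1, the highest, the difference was 3.52 percentage points (exact permutation p = 0.0286, the smallest that 4 against 3 libraries allow). That was the largest difference among the fits with 1 library left out, and its p was not adjusted. With DMS the means were 73.1% ± 3.0 and 75.1% ± 5.3 (SD, n = 4; exact permutation p = 0.514).

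Ribose methylation, placed by box C/D snoRNPs, sits on the sugar and leaves the pairing face of the base unchanged. Of 9 such A and C known in this portion of yeast 25S, 8 had the depth; A876 had 34 reads in its shallowest library. With DMS, 1 of 5 tested was called higher in WT and 2 of 8 in H375A, beside the 27.6% and 34.3% of all tested members. A817 was the one called in both, with pooled rates of 1.38% with and 0.442% without DMS in WT and 1.59% and 0.594% in H375A, and A1449 was called in H375A alone. Neither of the 2 sites tested between genotypes was called. The median pooled rate of the 8 sites was 0.348% with and 0.380% without DMS in WT and 0.738% and 0.411% in H375A, beside 0.614%, 0.355%, 0.668% and 0.336% over all members with a low untreated rate. Replicate 3 dominates the pooled H375A rate; with each library weighted equally, the median DMS rate of the 8 sites was 0.360% in WT and 0.433% in H375A.

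The amount of the stretch in the purified RNA was read from its mean depth over that of 18S. In the untreated libraries the ratio was 0.354, 0.609, 0.462 and 0.428 in WT and 0.314, 0.317, 0.319 and 0.323 in H375A. In the DMS libraries it was 0.365, 0.556, 0.505 and 0.497 in WT and 0.300, 0.317, 0.332 and 0.317 in H375A. Every H375A library lay below every WT library under each treatment. The log2 difference was -0.51 untreated and -0.59 with DMS; each exact two-sided permutation test gave p = 0.0286, the smallest that 4 against 4 libraries allow, or 0.0571 adjusted over 4 tests, which does not pass. Relative to the rest of 25S the ratios were 1.15 ± 0.07 and 1.16 ± 0.08 untreated (SD, n = 4; exact permutation p = 0.914), and 1.17 ± 0.08 and 1.16 ± 0.07 with DMS (p = 1). Less 25S sequence and more 18S sequence in the H375A preparations cannot be told apart from such a ratio. Along the stretch the ratio to 18S was lowest in nucleotides 1001 to 1100, at 0.247 in WT and 0.175 in H375A untreated, and highest in 1201 to 1300, at 0.670 and 0.477.

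**Figure D5:**
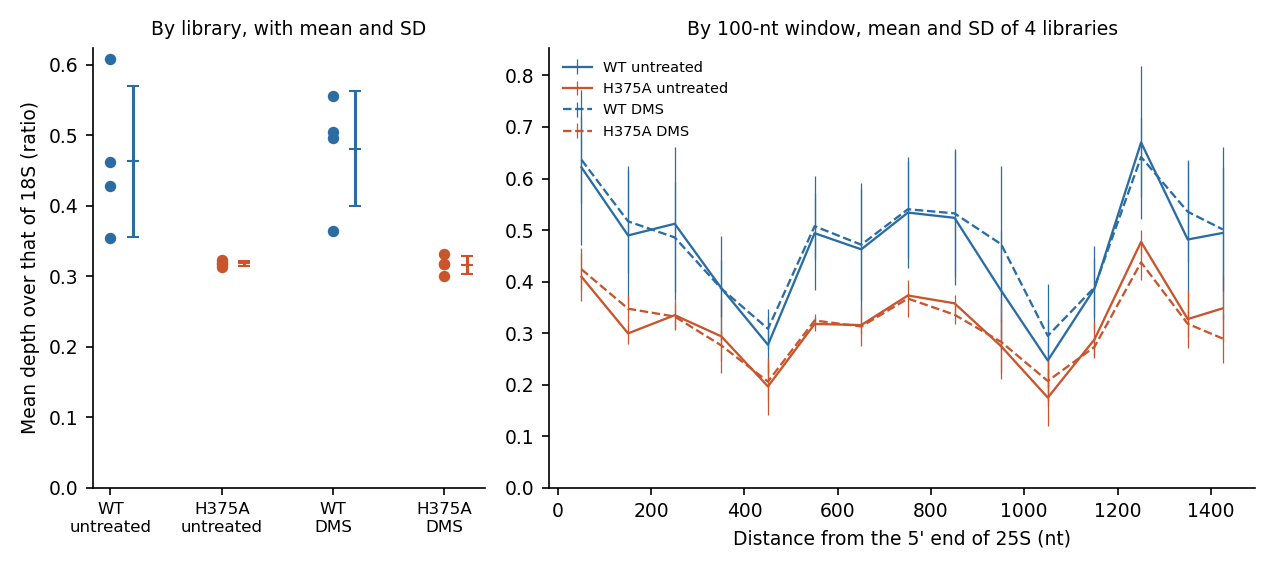
Mean effective depth of the stretch over that of 18S, by library with mean and SD (left) and by 100-nt window with the SD of 4 libraries against the distance from the 5′ end of 25S (right). H375A libraries lie at 0.300 to 0.332, all below the WT libraries at 0.354 to 0.609, and the order holds in every window mean.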

How the data were processed

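The deposited profiles gave, per the file headers, counts of mutated reads, of reads and of effective depth for each nucleotide; the authors' mutation rate, a fraction, equalled mutated reads over effective depth with no background subtracted. Aligner, mutation caller, filters and build are not given in the sources used here; they act on every rate, and PCR duplicates were not marked. Profile lengths matched RefSeq R64 (25S, 3396 nt; 18S, 1800 nt). The members and lists were chosen with earlier results of these data known.

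Mutated reads were tested with edgeR 4.0.16 (R 4.3.3) quasi-likelihood fits, offset by log effective depth and, between genotypes, by a median-ratio scaling over 885 sites. All A and C of the profile with depth of at least 50 in every library and an untreated rate under 5% entered, with 10 or more mutated reads or, between genotypes, a DMS rate 0.2 percentage points above untreated. P-values were adjusted by Benjamini-Hochberg over the profile, with a threshold of 0.05. Standard errors came from the test statistic. Windows used limma 3.58.1, DESeq2 1.42.0 was an alternative, and pairing was predicted with RNAplfold 2.7.2 (window 150, span 100). Single values per library used exact permutation tests; mean rates by base are given without a p. The fits were tested on simulated counts. Named sites were those called between genotypes, the 12 strongest of each genotype, those at 5% or more untreated, listed ribose-methylated sites, the GTPase-associated centre found by its end sequences, and extreme windows and runs.

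Replicate numbers pair a DMS library with its untreated control, per the series' design text; the correlation of their deviations over sites was -0.010 to 0.18. For DMS libraries of the same number in different genotypes it was 0.013 to 0.081, and for untreated ones 0.038 to 0.12. Known pairs also ran this low, so these values cannot decide whether the genotypes were paired by number. The main fits between genotypes were unpaired, with the replicate block as an alternative.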

Additional observations from a re-analysis of the deposited data

Results flagged for a closer look

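Of 96 groups of 4 libraries examined for a lone extreme library, 9 held one, where chance gives 4.8; many share libraries and are not independent. In the WT DMS libraries, replicate 1 was lowest for the mean rate at A, 0.937% against 1.18 to 1.20%, and for C717, 2.86% against 5.24 to 5.70%, while A157 was high in replicate 2, 4.05% against 2.36 to 2.62%. In the H375A DMS libraries, C1224 was high in replicate 3, 5.21% against 3.76 to 3.96%, and A1273 was low in replicate 4, 2.58% against 3.67 to 3.87%. The median depth of H375A DMS replicate 3, 1586.5 reads, stood apart from 113 to 337. Without DMS, WT replicate 4 had a mean rate at G of 0.498% against 0.413 to 0.421%. A366 was at 0.955% in untreated WT replicate 2, with 0 mutated reads in the other 3, and C1146 at 0% in untreated H375A replicate 4 against 0.756 to 0.867%.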

How the results depend on the processing

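The 2 sites called between genotypes fell to 1 at a depth minimum of 100, with no scaling and with DESeq2 (A692 lost; NA for the adjusted p at 304 of 320 sites), and to 0 in the genotype by treatment interaction; leaving out 1 library gave 1 to 2, with A914 (higher) called without WT replicate 2. Leaving out both libraries of replicates 1, 2, 3 and 4 in turn, chosen after seeing the data, gave 4, 1, 0 and 2, the 4 including A848 (lower) and A1193 (higher). With a replicate block it was 3, the third being A848 (log2 change -0.94, edgeR adjusted p = 0.0148). The calls for DMS over untreated were 143 in WT and 199 in H375A, and became 94 and 124 at a depth minimum of 100, 88 and 79 with DESeq2, and 122 and 144 with the replicate block of DMS and untreated pairs; leaving out 1 library gave 102 to 148 and 88 to 202. The DMS minus untreated difference at A was 0.578 (WT) and 0.566 (H375A) percentage points by the median over sites, in place of 0.729 and 0.710. At C it was 0.140 and 0.0575 by the median and 0.281 and 0.298 at a depth of 100, in place of 0.227 and 0.240. The median also put C at -0.183 between genotypes, and G in H375A at -0.0597 for DMS minus untreated in place of 0.0297. Depth over the rest of 25S changed sign around 0 when 1 library was left out, -0.0192 to 0.0554 untreated and -0.0379 to 0.0420 with DMS. For A645 that gave 0.125 to 3.52 percentage points, the highest without WT replicate 1 (exact permutation p = 0.0286). The causes of these shifts were not tested. The block was not run for mean rates by base; 4 pairs allow no exact p below 0.125. Untreated and window calls between genotypes were 0 under each alternative run. Depth limits the rest: at 50 reads, 1 mutated read is 2.0% with a Wilson interval of 0.354% to 10.5%.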
